A study of Mus musculus with 12 samples.

Results

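The genes that encode the subunits of the mitochondrial respiratory chain were followed across prefrontal cortex and hippocampus of mice with and without an intact amyloid precursor protein gene. Members were every gene whose symbol in the array annotation begins with Nduf, Uqcr, Cox4, Cox5, Cox6, Cox7, Cox8 or Atp5, together with Sdha, Sdhb, Sdhc, Sdhd, Cyc1 and Cycs. This gave 92 of the 18193 genes that had a probe set with a single symbol. Each was read from 1 probe set, the one with the highest mean over the 12 arrays; 52 of the members had further probe sets. By role, 34 members belonged to complex I, 4 to complex II, 9 to complex III, 1 was cytochrome c, 19 belonged to complex IV and 17 to ATP synthase. The other 8, Ndufaf1 to Ndufaf8, match the name rule but encode assembly factors of complex I, which build the complex and are not part of it. Genes of the chain that the array annotation lists under several symbols or another name were not members.

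The samples were 12 Affymetrix arrays in 4 groups of 3: APPsα-DM hippocampus, APLP2-KO hippocampus, APPsα-DM cortex and APLP2-KO cortex. APPsα-DM mice are APPα/α APLP2-/-, in which an edited App allele on both chromosomes leaves the secreted ectodomain APPsα in place of the membrane protein. APLP2-KO mice are APLP2-/- with App unedited, so the absence of APLP2, a relative of App, is common to all arrays, and no wild type was analysed here. All mice were females of 38 to 40 weeks on a C57BL/6 background (6 backcross generations), with 3 mice per genotype. The cRNA was made from 1 µg of RNA of whole dissected tissue. In whole tissue, fewer cells of a type and less RNA per cell cannot be told apart. Values are log2 signals after RMA, the robust multi-array average, so a difference of 1 is a 2-fold difference; signals of different probe sets were not set against each other. The lower App signal of every APPsα-DM array checked the genotype labels: the App probe set used here averaged 11.55 ± 0.10 in APPsα-DM hippocampus, against 13.46 ± 0.02 in APLP2-KO hippocampus, and 11.80 ± 0.06 in APPsα-DM cortex, against 13.46 ± 0.07 in APLP2-KO cortex (mean ± SD, n = 3 each).

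The respiratory chain sits in the inner mitochondrial membrane. Complexes I and II pass electrons from NADH and succinate to ubiquinone, complex III hands them to cytochrome c, and complex IV, cytochrome c oxidase, reduces oxygen; complexes I, III and IV pump protons, and ATP synthase uses the gradient to make ATP. Neurons draw most of their ATP from this chain, and some subunits of complex IV exist as alternative isoforms, of which one is widespread and another is typical of heart and skeletal muscle or of testis. The nuclear genes of the chain are known to be controlled in part by the factors NRF1, GABPA (the ETS factor also called NRF2) and YY1.

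Promoters of the members were set against those of all genes, because coordinated control of the chain is usually traced to these motifs. RefSeq windows (GRCm38.p6; 250 bases before to 50 after a start) were available for 75 of the 92 members, and each motif was searched on both strands, with overlaps between motifs allowed. The ETS core CCGGAAG was in the windows of 25.3% of the members and 9.93% of all 27025 genes with a window. The palindromic NRF1 motif was in 22.7% of the members and 5.19% of all genes, and the YY1 motif AAGATGGCG in 9.33% and 1.64%. The letters TATAAA ran the other way, in 10.7% of the members and 15.7% of all genes, as did the palindromic MEF2 core, in 2.67% and 4.23%. Of the muscle- or testis-type isoform genes of complex IV, 4 had a window (Cox6b2, Cox7a1, Cox7b2 and Cox8b): none held the ETS, NRF1, YY1 or MEF2 letters, and 2 held TATAAA. Of the stretches printed here, which end at the gene's start, those of Atp5j and Cox6a1 hold motifs and that of Cox8b none. Atp5j encodes the peripheral stalk subunit F6 of ATP synthase and lies head to head with Gabpa, the gene of GABPA itself, close to App; the stretch shown is the whole interval between the starts of both genes (chr16:84834977-84835123, minus strand). Cox6a1 encodes the widespread isoform of complex IV subunit 6a (chr5:115348959-115349208, minus strand), and Cox8b the muscle isoform of subunit 8 (chr7:140900447-140900696, minus strand). Capitals mark the motif letters on either strand.
Atp5j: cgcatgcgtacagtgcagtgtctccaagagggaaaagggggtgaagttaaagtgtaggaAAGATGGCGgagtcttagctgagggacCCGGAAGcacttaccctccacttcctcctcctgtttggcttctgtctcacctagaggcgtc
Cox6a1: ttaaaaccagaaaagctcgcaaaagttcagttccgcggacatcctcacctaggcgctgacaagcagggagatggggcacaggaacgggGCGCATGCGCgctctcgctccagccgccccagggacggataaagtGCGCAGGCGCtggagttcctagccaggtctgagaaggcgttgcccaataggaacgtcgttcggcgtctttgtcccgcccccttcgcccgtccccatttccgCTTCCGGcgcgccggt
Cox8b: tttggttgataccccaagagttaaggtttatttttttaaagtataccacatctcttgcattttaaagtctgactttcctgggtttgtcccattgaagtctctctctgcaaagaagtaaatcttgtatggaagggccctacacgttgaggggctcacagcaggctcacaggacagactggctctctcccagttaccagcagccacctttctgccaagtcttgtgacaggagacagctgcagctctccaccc
A match is a match of letters only, and its absence speaks for these windows alone.

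Setting APPsα-DM against APLP2-KO asks what the loss of membrane-bound App, on an APLP2-deficient background, does to gene expression. No subunit gene of any complex passed the threshold in hippocampus or in cortex. Tests were limma's moderated tests on all 45037 probe sets with Benjamini-Hochberg adjustment and a threshold of 0.05 on the adjusted p; of all probe sets 0.00888% passed in hippocampus and 0.00888% in cortex. In hippocampus 0 of 92 members were called, 1 had an unadjusted p under 0.05 and the median log2 difference was 0.04, beside 4.11% at that p and a median of 0.00 over all probe sets. In cortex 0 of 92 were called, 0 had an unadjusted p under 0.05, beside 4.5% of all, and the median was again 0.04, beside 0.00.

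The signals of the brighter probe sets left little room for a change between the genotypes. The 76 members with a mean log2 level of 9 or more (a level chosen with these data known) had 95% intervals of the genotype difference that reached at most from -0.22 (Cox6c) to 0.32 (Atp5e, the F1 epsilon subunit) in hippocampus. In cortex the bounds were -0.25 (Cox6c) and 0.29 (Ndufa3, an accessory subunit of complex I). No interval of these members therefore extended beyond a 1.25-fold difference in hippocampus or a 1.22-fold difference in cortex, without adjustment for the number of genes. Subunits read by a dim probe set are not covered. Cox7c of complex IV (mean level 6.02) had intervals of -0.34 to 0.32 in hippocampus and -0.23 to 0.43 in cortex. For Ndufb4 of complex I (3.95) they were -0.16 to 0.29 and -0.43 to 0.02. The median SD within a group was 0.05 over the members, and the mean over the 76 members was 11.68, 11.66 and 11.65 on the APPsα-DM hippocampus arrays, against 11.67, 11.63 and 11.59 on those of APLP2-KO. On cortex arrays it was 11.63, 11.71 and 11.66 in APPsα-DM, against 11.67, 11.59 and 11.66 in APLP2-KO. The groups overlapped in both tissues.

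Small differences in the same direction were common. In hippocampus 80 of 92 members lay above 0, beside 48.8% of all probe sets, and in cortex 66 of 92, beside 51.5%. Among the 88 members and the other probe sets that reached 6 in a group mean, 77 members lay above 0 in hippocampus, beside 58.4% of those probe sets, and 65 in cortex, beside 48.2%. In cortex the count depended on single arrays: it was 52 of 92 without APLP2-KO cortex array 2 and 55 of 92 without APPsα-DM cortex array 2; in hippocampus it ranged from 70 to 81 when single hippocampus arrays were left out, and was 69 with the mean of choroid plexus markers (described with Cox8b) as a covariate. The lean was shared by lists of genes around the chain, which are described further below. In hippocampus 35 of 42 assembly factors, 15 of 17 citric acid cycle genes and 15 of 20 carrier and import genes lay above 0. So did 13 of 20 regulators and 11 of 14 glycolysis genes. In cortex the counts of these lists were 26, 11, 14, 15 and 5, in the same order. Between the genotypes in hippocampus, all 14 choroid plexus markers and all 12 endothelial markers also lay above 0, with medians of 1.09 and 0.28 and none past the threshold. Of the other cell type lists, 11 of 12 pericyte, 10 of 12 smooth muscle and leptomeningeal and 10 of 12 ependymal markers lay above 0. So did 9 of 12 interneuron, 8 of 12 neuron and 7 of 10 striatal markers. Below 0 lay 9 of 10 oligodendrocyte, 9 of 12 astrocyte and 8 of 11 microglia markers. The mean of the endothelial markers was 7.71 to 7.93 in APPsα-DM hippocampus, against 7.49 to 7.58 in APLP2-KO hippocampus, without overlap, and 7.86 to 8.06 in APPsα-DM cortex, against 7.68 to 7.94 in APLP2-KO cortex. The part of endothelial or other cells in the members' differences was not tested. By complex, 32 of 34 complex I genes, 4 of 4 complex II genes, 9 of 9 complex III genes and 16 of 17 ATP synthase genes were above 0 in hippocampus, with a median of 0.04 in each, and 10 of 19 complex IV genes, with a median of 0.01. Complete separation of the 3 APPsα-DM from the 3 APLP2-KO arrays was seen for 9 members, all higher in APPsα-DM hippocampus (Atp5b, Atp5e, Ndufa1, Ndufa10, Ndufa13, Ndufaf6, Ndufs4, Sdhc and Uqcrb), beside 4.1% of all probe sets, and for 0 lower, beside 5.78%. In cortex 5 did not overlap, all higher in APPsα-DM (Atp5c1, Atp5l, Cyc1, Ndufb3 and Ndufc2), beside 4.07%, and 0 lower, beside 4.66%. No gene was in both lists.

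**Figure D1:**
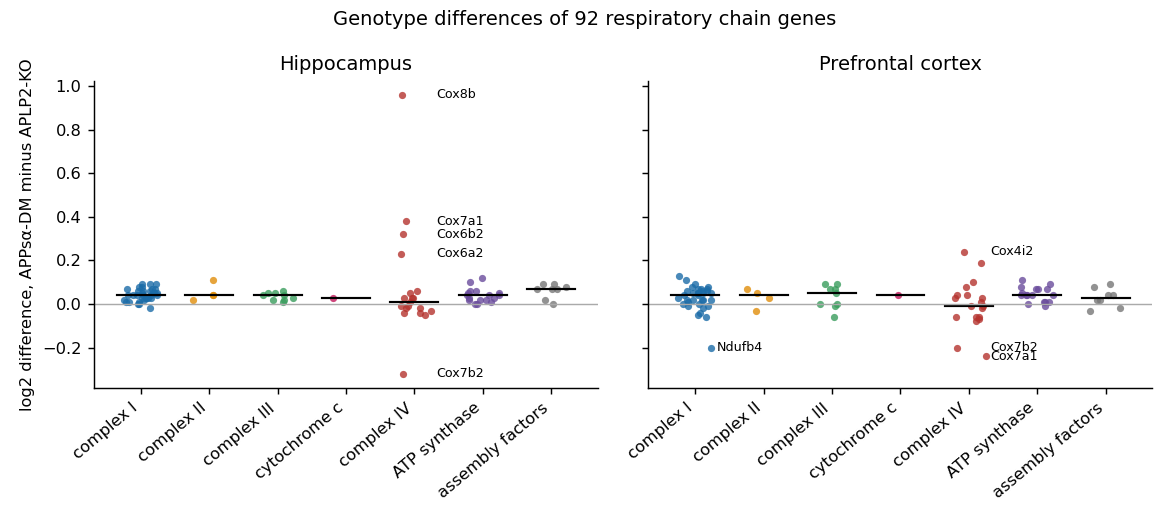
Log2 difference, APPsα-DM minus APLP2-KO, of each of the 92 genes (points) in hippocampus (left) and prefrontal cortex (right), by complex, with the median of each complex as a bar. All medians lie between -0.01 and 0.07, and the points farthest from 0, labelled by name, are genes with a mean level under 9.

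Among complex I genes, those with the smallest p in cortex were Ndufb4, Ndufa3 and Ndufb3, all accessory subunits. Ndufa3 read 12.30, 12.46 and 12.34 in APPsα-DM cortex, against 12.34, 12.13 and 12.26 in APLP2-KO cortex, a difference of 0.13 ± 0.07 (SE). Ndufb3 read 10.88, 11.03 and 10.87, against 10.84, 10.73 and 10.86, a difference of 0.11 ± 0.07. The arrays overlapped for Ndufa3 and were separated by 0.01 for Ndufb3, and limma's adjusted p was 1 for both. In hippocampus Ndufs4, an accessory subunit needed late in complex I assembly, read 9.76, 9.75 and 9.77 in APPsα-DM, against 9.73, 9.66 and 9.63 in APLP2-KO, a difference of 0.09 ± 0.06 with an adjusted p of 1. The mean of its 4 probe sets gave -0.02. The other probe sets gave 0.04 at a mean level of 8.27, 0.01 at 7.49 and -0.21 at 3.89. The sign thus turned only with the dimmest probe set.

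ATP synthase genes differed by -0.00 to 0.12 in hippocampus and -0.01 to 0.11 in cortex. Atp5l, the membrane subunit g, had the smallest p of the complex in cortex, with 11.76, 11.88 and 11.77 in APPsα-DM against 11.74, 11.61 and 11.73 in APLP2-KO, a difference of 0.11 ± 0.07 (adjusted p = 1). The catalytic F1 beta subunit Atp5b differed by 0.03 ± 0.06 in hippocampus and 0.01 ± 0.06 in cortex, and the alpha subunit Atp5a1 by 0.02 ± 0.05 and 0.05 ± 0.05. The genes of the c subunit, Atp5g1, Atp5g2 and Atp5g3, encode the same mature protein of the rotor ring and differ in the import sequence. Their genotype differences were 0.05, 0.02 and 0.01 in hippocampus and 0.04, 0.01 and 0.04 in cortex.

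Hippocampus and cortex were compared within each genotype. Of all probe sets, 10.6% passed the threshold in APPsα-DM (5.21% higher and 5.42% lower in hippocampus) and 12.6% in APLP2-KO (5.62% higher and 6.98% lower), whereas 0 of 92 members passed in APPsα-DM and 1 of 92 in APLP2-KO. That gene was Cox6a2, which encodes the heart and muscle isoform of complex IV subunit 6a and fell in hippocampus. At an unadjusted p under 0.05 there were 5 members in APPsα-DM (Cox6a2, Cox6b2, Cox8b, Ndufaf4 and Ndufb1), beside 22.9% of all probe sets, and 6 in APLP2-KO (Cox6a2, Cox7a1, Cycs, Ndufb1, Sdha and Uqcrc1), beside 24.6%. In APPsα-DM 41 members lay above 0 and 51 below, beside 46.2% and 53.8% of all probe sets, and in APLP2-KO again 41 and 51, beside 51.7% and 48.3%. The median tissue difference, hippocampus minus cortex, was -0.01 in APPsα-DM and -0.02 in APLP2-KO, and the 95% intervals of the 76 members at 9 or more stayed between -0.30 and 0.27 in APPsα-DM and between -0.33 and 0.31 in APLP2-KO, or within 1.23-fold and 1.26-fold. Arrays of the tissues did not overlap for 11 members higher and 8 lower in APPsα-DM hippocampus, beside 13.2% and 14.2% of all probe sets. In APLP2-KO they did not overlap for 10 higher and 12 lower, beside 14.8% and 15.5%.

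The small tissue differences had a like order in both genotypes, which share no array. Over the 76 members at 9 or more, the differences of APPsα-DM and APLP2-KO correlated across genes at r = 0.87, and at r = 0.87 over all probe sets. These are correlations across genes that were measured by the same probe sets and normalised by RMA, and genes are not independent replicates. Of the 76, 37 lay below 0 in both genotypes and 24 above 0 in both. Over all 92 members, dim ones included, r was 0.52 and 72 had the same sign in both genotypes.

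**Figure D2:**
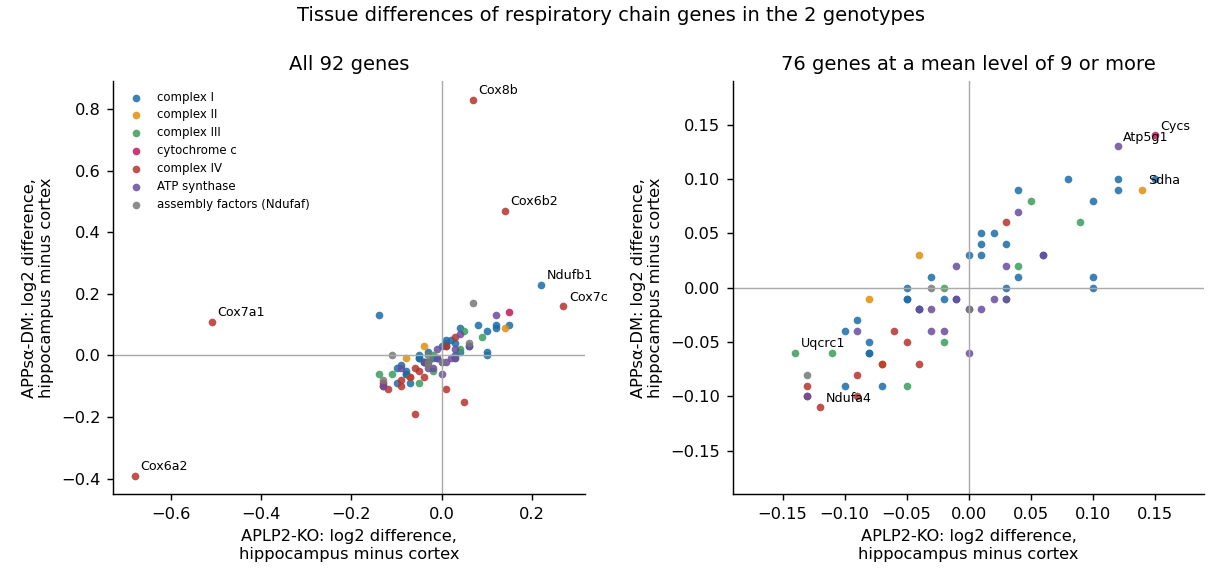
Log2 difference, hippocampus minus cortex, of each gene in APPsα-DM (vertical axis) and in APLP2-KO (horizontal axis), coloured by complex: all 92 genes on the left and the 76 at a mean level of 9 or more on the right, on a finer scale. On the right the points run along a diagonal between -0.14 and 0.15, with most complex IV genes at the lower left and Cycs, Atp5g1 and Sdha at the upper right.

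Complex IV lay slightly on the cortex side. Over all its 19 members, 13 were below 0 and 6 above in APPsα-DM, and 12 below and 7 above in APLP2-KO, with medians of -0.07 and -0.06. Of its 10 members at 9 or more, 9 were below 0 in both genotypes, with a median of -0.08 in each, and Cox6c was above 0. The mean of the 10 was 12.44, 12.45 and 12.45 in APPsα-DM hippocampus, against 12.49, 12.54 and 12.49 in APPsα-DM cortex. In APLP2-KO it was 12.48, 12.43 and 12.41 in hippocampus, against 12.55, 12.46 and 12.53 in cortex. The tissues did not overlap in APPsα-DM and overlapped in APLP2-KO. Ndufa4, named after complex I and now counted as a complex IV subunit, read 10.99, 10.98 and 11.07 in APPsα-DM hippocampus, against 11.11, 11.12 and 11.14 in cortex. In APLP2-KO it read 11.04, 10.97 and 11.01 in hippocampus, against 11.14, 11.06 and 11.18 in cortex. Its differences were -0.11 ± 0.06 in APPsα-DM (adjusted p = 0.314) and -0.12 ± 0.06 in APLP2-KO (adjusted p = 0.235), neither past the threshold. Cox4i1, the main isoform of subunit 4, differed by -0.08 ± 0.06 and -0.09 ± 0.06, and Cox7a2l, which helps join complexes III and IV, by -0.07 ± 0.07 and -0.04 ± 0.07.

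Other complexes were spread on both sides of 0; the genes named in this and the next paragraph, the c subunit genes apart, were chosen after their values were seen. Of the 32 complex I genes at 9 or more, 13 were below 0 and 14 above 0 in both genotypes; of the 17 ATP synthase genes 8 and 4, and of the 9 complex III genes 4 and 3. Cytochrome c (Cycs), the mobile electron carrier, read 12.26, 12.37 and 12.32 in APPsα-DM hippocampus, against 12.19, 12.15 and 12.20 in cortex. In APLP2-KO hippocampus it read 12.37, 12.27 and 12.21, against 12.14, 12.11 and 12.17 in cortex. The tissues did not overlap in either genotype, but the differences of 0.14 ± 0.06 (adjusted p = 0.226) and 0.15 ± 0.06 (adjusted p = 0.173) did not pass. The c subunit gene Atp5g1 gave 0.13 ± 0.06 and 0.12 ± 0.06, while Atp5g2 gave -0.02 and -0.03 and Atp5g3 -0.01 and 0.02. Sdha, the flavoprotein that oxidises succinate, gave 0.09 ± 0.06 and 0.14 ± 0.06 by the probe set used, with a mean level of 11.67. Another Sdha probe set, with a mean level of 11.39, gave -0.02 in each genotype. Ndufs1, the largest iron-sulfur subunit of complex I, gave 0.09 ± 0.06 and 0.12 ± 0.06. Uqcrc1, a core protein of complex III, gave -0.06 ± 0.06 and -0.14 ± 0.06.

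Ndufb1, a small accessory subunit of complex I with a mean level of 7.58, had the smallest adjusted p of the members in APPsα-DM. It read 7.62, 7.82 and 7.73 in APPsα-DM hippocampus, against 7.46, 7.53 and 7.50 in cortex, and 7.75, 7.65 and 7.60 in APLP2-KO hippocampus, against 7.45, 7.32 and 7.56 in cortex. The tissues did not overlap in either genotype. The differences of 0.23 ± 0.08 (adjusted p = 0.0922) and 0.22 ± 0.08 (adjusted p = 0.0943) missed the threshold, and passed it when probe sets under a group mean of 6 were left out (adjusted p = 0.0444 and 0.0438).

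The clearest tissue difference belonged to an isoform gene. Cox6a2 read 7.45, 7.24 and 7.37 in APLP2-KO hippocampus, against 8.22, 7.84 and 8.04 in APLP2-KO cortex. In APPsα-DM it read 7.40, 7.80 and 7.54 in hippocampus, against 7.95, 8.26 and 7.69 in cortex. The tissues did not overlap in APLP2-KO and overlapped in APPsα-DM, through hippocampus array 2 and cortex array 3. Cox6a2 fell by 0.68 ± 0.15 on the log2 scale, or 1.60-fold, in APLP2-KO hippocampus (adjusted p = 0.00815). In APPsα-DM the difference was -0.39 ± 0.15, or 1.31-fold, and did not pass (adjusted p = 0.127); it passed with the replicate number as a block (adjusted p = 0.0282), without cortex array 3 (0.043) and as the mean of both probe sets (0.0486). The tissue effects of the genotypes differed by 0.29 ± 0.21 (adjusted p = 1). The other Cox6a2 probe set, with a mean level of 6.01, gave -0.85 in APLP2-KO (adjusted p = 0.00186) and -0.53 in APPsα-DM (adjusted p = 0.0359), both past the threshold.

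Its widespread counterpart Cox6a1 showed a smaller difference of the same sign. It ranged from 13.44 to 13.58 in APPsα-DM hippocampus, against 13.57 to 13.67 in cortex, and from 13.49 to 13.60 in APLP2-KO hippocampus, against 13.61 to 13.72 in cortex. The differences were -0.09 ± 0.07 and -0.13 ± 0.07, neither past the threshold. In mouse brain Cox6a2 is known from parvalbumin interneurons, fast-spiking inhibitory cells. Pvalb, their marker, was lower in hippocampus by 0.73 ± 0.11 in APPsα-DM (adjusted p = 0.00106) and by 0.94 ± 0.11 in APLP2-KO (adjusted p = 0.000123). Of 12 GABAergic interneuron markers, 5 fell and 0 rose in APPsα-DM hippocampus, and 4 fell and 1 rose in APLP2-KO hippocampus. Their mean level was 9.84 to 9.90 in APPsα-DM hippocampus against 10.05 to 10.30 in cortex, and 9.74 to 9.83 in APLP2-KO hippocampus against 9.98 to 10.03 in cortex. All 10 measured markers of striatal neurons fell in hippocampus in both genotypes, with mean levels of 7.22 to 7.45 against 9.39 to 9.95 in APPsα-DM and of 7.05 to 7.46 against 9.21 to 9.62 in APLP2-KO. The part of these cells in the Cox6a2 difference was not tested.

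**Figure D3:**
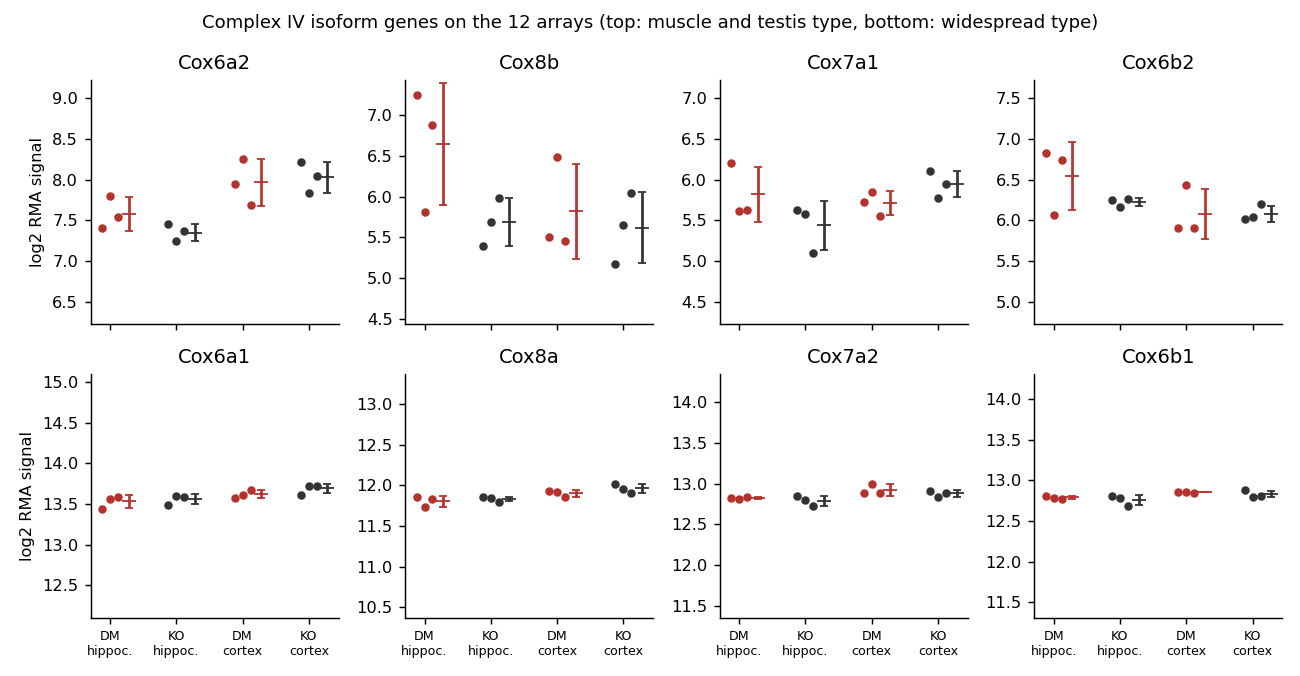
Log2 RMA signal of 4 muscle- or testis-type complex IV isoform genes (top row) and their widespread counterparts (bottom row) on each of the 12 arrays (points), with mean and SD of each group of 3 beside them; every panel spans the same log2 range, APPsα-DM (DM) is red and APLP2-KO (KO) is black. Cox6a2 is lower on the hippocampus arrays of APLP2-KO, Cox8b and Cox6b2 are high on APPsα-DM hippocampus arrays 1 and 3, and the widespread isoforms differ little.

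Cox8b, the heart and muscle isoform of subunit 8, was the member with the largest genotype difference in hippocampus. It read 7.25, 5.81 and 6.88 in APPsα-DM hippocampus, against 5.40, 5.69 and 5.98 in APLP2-KO hippocampus, and 5.50, 6.49 and 5.46 in APPsα-DM cortex, against 5.17, 5.65 and 6.05 in APLP2-KO cortex. APPsα-DM hippocampus arrays 1 and 3 and APPsα-DM cortex array 2 were high, and the genotypes overlapped in both tissues. The hippocampal difference of 0.96 ± 0.36 had an unadjusted p of 0.0212 and an adjusted p of 1, and the cortical one was 0.19 ± 0.36. Its tissue difference was 0.83 ± 0.36 in APPsα-DM (adjusted p = 0.192) and 0.07 ± 0.36 in APLP2-KO, and the first passed without APPsα-DM hippocampus array 2 (1.25, adjusted p = 0.0286). Cox8a, the widespread isoform, differed between the genotypes by -0.02 ± 0.06 in hippocampus and -0.06 ± 0.06 in cortex.

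Cox6b2, the testis isoform of subunit 6b, was high on the same arrays. It read 6.83, 6.07 and 6.74 in APPsα-DM hippocampus, against 6.25, 6.17 and 6.26 in APLP2-KO hippocampus, and 5.90, 6.43 and 5.90 in APPsα-DM cortex, against 6.02, 6.04 and 6.20 in APLP2-KO cortex. The hippocampal genotype difference was 0.32 ± 0.18 (adjusted p = 1) and the tissue difference in APPsα-DM 0.47 ± 0.18 (adjusted p = 0.138). The tissue difference passed without APPsα-DM hippocampus array 2 (0.71, adjusted p = 0.00783) and without APPsα-DM cortex array 2 (0.65, adjusted p = 0.0458). Its counterpart Cox6b1 differed between the genotypes by 0.03 ± 0.06 in each tissue.

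The APPsα-DM arrays on which both genes were high were also high in markers of choroid plexus, the secretory epithelium of the ventricles, which lies beside the hippocampus. The mean of 14 such markers was 8.31, 5.78 and 7.93 on the APPsα-DM hippocampus arrays, against 5.56, 6.29 and 7.31 on those of APLP2-KO. On cortex arrays it was 5.02, 7.34 and 5.09 in APPsα-DM, against 5.01, 4.99 and 6.97 in APLP2-KO. Transthyretin (Ttr), the defining marker, read 14.34, 11.83 and 14.36 in APPsα-DM hippocampus, against 10.63, 13.43 and 14.21 in APLP2-KO hippocampus. In cortex it read 14.18 on APPsα-DM array 2 and 14.03 on APLP2-KO array 3, against 8.20 to 9.42 on the others. APLP2-KO hippocampus array 3 was thus high in Ttr, with a lower marker mean than the high APPsα-DM hippocampus arrays. Its Cox8b of 5.98 and Cox6b2 of 6.26 lay below the values of the high APPsα-DM arrays. Within its own group these were the highest values, for Cox6b2 against 6.25 on the next array. APLP2-KO cortex array 3 was likewise the highest of its group, with Cox8b at 6.05 and Cox6b2 at 6.20. None of the 14 passed the threshold between the genotypes, and all 14 lay above 0 in hippocampus, with a median of 1.09. With the choroid plexus mean as a covariate, the Cox8b difference was 0.54 ± 0.14 between the genotypes in hippocampus (adjusted p = 0.825) and 0.17 ± 0.15 between the tissues in APPsα-DM (adjusted p = 0.549). For Cox6b2 these values were 0.14 ± 0.11 and 0.18 ± 0.12. With the same covariate Cox6a2 differed by -0.68 ± 0.16 between the tissues in APLP2-KO, still past the threshold (adjusted p = 0.015).

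**Figure D4:**
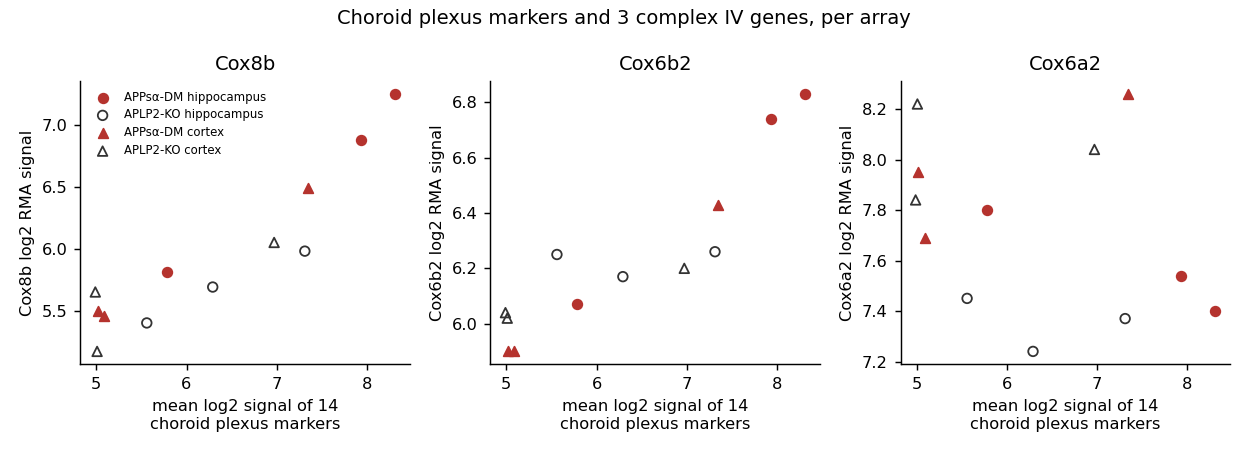
Log2 RMA signal of Cox8b, Cox6b2 and Cox6a2 (vertical axes) against the mean log2 signal of 14 choroid plexus markers (horizontal axes) on each of the 12 arrays; circles are hippocampus, triangles cortex, filled red APPsα-DM and open black APLP2-KO. Cox8b and Cox6b2 are highest on the 2 arrays with the highest marker means, 8.31 and 7.93. Cox6a2 separates by tissue in APLP2-KO, while its tissues overlap in APPsα-DM.

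The remaining isoform genes of complex IV showed no difference past the threshold. Cox7a1, the heart and muscle isoform of subunit 7a, read 6.21, 5.61 and 5.63 in APPsα-DM hippocampus, against 5.63, 5.58 and 5.10 in APLP2-KO hippocampus, and 5.72, 5.85 and 5.55 in APPsα-DM cortex, against 6.11, 5.78 and 5.95 in APLP2-KO cortex. It lay higher in APPsα-DM hippocampus by 0.38 ± 0.17 and lower in APPsα-DM cortex by -0.24 ± 0.17. The difference between these genotype effects, 0.62 ± 0.25, was the only one among the members with an unadjusted p under 0.05 (limma's adjusted p = 1), beside 3.79% of all probe sets at that p and 0.0% past the threshold. In APLP2-KO its tissues did not overlap, with a difference of -0.51 ± 0.17 (adjusted p = 0.0812), which passed without APPsα-DM hippocampus array 1 (adjusted p = 0.0318); in APPsα-DM the difference was 0.11 ± 0.17. Cox7a2, the widespread isoform, ranged from 12.81 to 12.84 in APPsα-DM hippocampus, 12.72 to 12.85 in APLP2-KO hippocampus, 12.88 to 13.00 in APPsα-DM cortex and 12.84 to 12.91 in APLP2-KO cortex.

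Cox4i2, the second isoform of subunit 4, known from lung and from pericytes, had the smallest p of the members in cortex. It read 5.45, 5.68 and 5.26 in APPsα-DM cortex, against 5.03, 5.37 and 5.25 in APLP2-KO cortex, and 5.26, 5.42 and 5.25 in APPsα-DM hippocampus, against 5.31, 5.14 and 5.34 in APLP2-KO hippocampus. The groups overlapped in both tissues, and the differences were 0.24 ± 0.11 in cortex and 0.05 ± 0.11 in hippocampus (adjusted p = 1 each). Ndufa4l2, the hypoxia-responsive relative of Ndufa4, differed by -0.05 ± 0.09 in hippocampus and 0.08 ± 0.09 in cortex. The testis isoforms Cox8c and Cox7b2 differed by -0.04 ± 0.09 and -0.32 ± 0.37 in hippocampus and by -0.06 ± 0.09 and -0.20 ± 0.37 in cortex. Of pericyte markers 0 of 12 passed between the genotypes in either tissue; their part was not tested.

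Chromosome 16 was examined because it carries App, the edited gene. Members there are Atp5j, Atp5o and Ndufb4, and 1 protein-coding gene, Gabpa, lies between Atp5j and App. Atp5j averaged 11.96 ± 0.05 in APPsα-DM hippocampus, against 11.97 ± 0.05 in APLP2-KO hippocampus, and 11.94 ± 0.03 in APPsα-DM cortex, against 11.94 ± 0.01 in APLP2-KO cortex, and lay between 11.91 and 12.02 on every array. The genotypes overlapped in both tissues, with differences of -0.00 ± 0.06 in hippocampus and 0.01 ± 0.06 in cortex. Gabpa, which shares with it the promoter stretch printed above, differed by -0.01 ± 0.08 and 0.10 ± 0.08. Atp5o, the stalk subunit OSCP, lies on the other side of App with 97 protein-coding genes between, and differed by 0.05 ± 0.07 and 0.07 ± 0.07. Ndufb4, an accessory subunit of complex I read here by a dim probe set with a mean level of 3.95, differed by 0.07 ± 0.10 and -0.20 ± 0.10, and its genotype effects differed by 0.27 ± 0.15 (adjusted p = 1).

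Timmdc1, a complex I assembly factor that is no member by name, also lies on chromosome 16, with 162 protein-coding genes between it and App, and was the only gene of the pathway lists past the threshold between the genotypes. It read 7.44, 7.59 and 7.28 in APPsα-DM hippocampus, against 6.59, 6.53 and 6.52 in APLP2-KO hippocampus, and 7.58, 7.56 and 7.53 in APPsα-DM cortex, against 6.93, 6.58 and 6.63 in APLP2-KO cortex. The genotypes did not overlap in either tissue. Timmdc1 rose by 0.89 ± 0.10 in APPsα-DM hippocampus (adjusted p = 0.00909) and by 0.84 ± 0.10 in APPsα-DM cortex (adjusted p = 0.0162); fitted on the 6 arrays of a tissue alone, the same differences had adjusted p values of 0.134 and 0.209. Cox17, a copper chaperone for complex IV with 4 protein-coding genes between it and Timmdc1, differed by 0.01 ± 0.07 and 0.04 ± 0.07. None of the 34 complex I genes and 8 Ndufaf genes passed in either tissue.

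**Figure D5:**
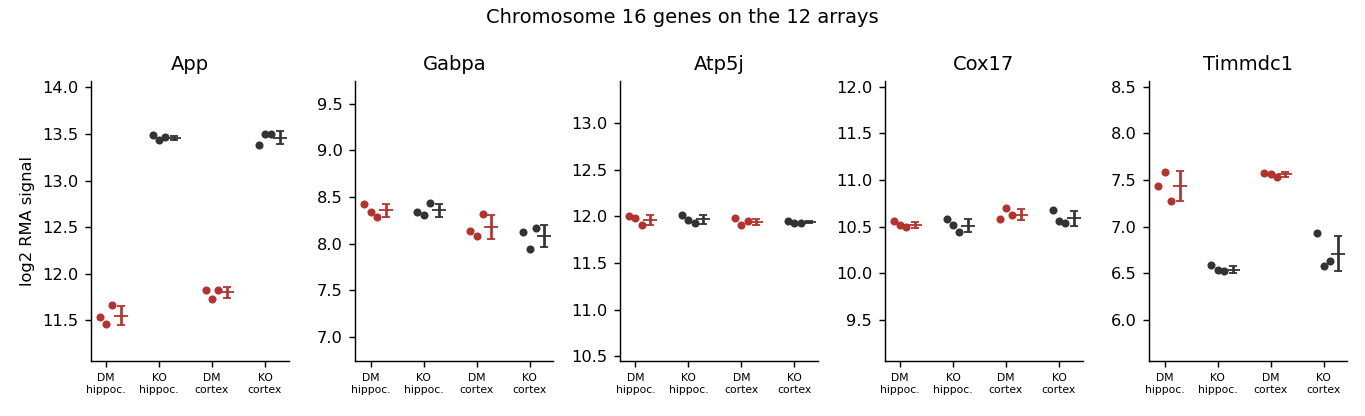
Log2 RMA signal of 5 chromosome 16 genes on each of the 12 arrays (points), with mean and SD of each group of 3 beside them; every panel spans the same log2 range, APPsα-DM (DM) is red and APLP2-KO (KO) is black. App is lower and Timmdc1 higher in APPsα-DM in both tissues, while Gabpa, Atp5j and Cox17 overlap between the genotypes.

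Genes around the chain were read from lists of assembly factors, regulators, citric acid cycle enzymes, mitochondrial carriers and import, and glycolysis. Between the genotypes, 1 of 42 assembly factors rose in each tissue (Timmdc1), and 0 of 20 regulators, 0 of 17 citric acid cycle genes, 0 of 20 carrier and import genes and 0 of 14 glycolysis genes passed. Between the tissues, 0 assembly factors rose and 2 fell in APPsα-DM hippocampus, and 1 rose and 4 fell in APLP2-KO hippocampus. Cmc2, a small protein of complex IV biogenesis, fell in both, by 0.49 ± 0.08 (adjusted p = 0.00102) and 0.60 ± 0.08 (adjusted p = 0.000167). Atpaf1, a chaperone of the ATP synthase F1 part, fell by 0.24 ± 0.07 (adjusted p = 0.0407) and 0.27 ± 0.07 (adjusted p = 0.0187). In APLP2-KO hippocampus Cmc1 and Uqcc2, assembly factors of complexes IV and III, also fell, by 0.36 and 0.30, and Tmem70, needed for ATP synthase assembly, rose by 0.23. In APPsα-DM these genes gave -0.19, -0.19 and 0.16, none past the threshold. No gene of these lists had tissue effects that differed between the genotypes past the threshold.

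Of the 20 regulators, 0 rose and 2 fell in APPsα-DM hippocampus, and 1 rose and 2 fell in APLP2-KO hippocampus. Esrrg, a nuclear receptor that activates oxidative metabolism genes, averaged 7.95 ± 0.08 in APPsα-DM hippocampus, against 8.63 ± 0.08 in cortex, and 7.72 ± 0.22 in APLP2-KO hippocampus, against 8.49 ± 0.01 in cortex. It fell by 0.67 ± 0.10 (adjusted p = 0.000622) and 0.77 ± 0.10 (adjusted p = 0.000191). Tfb1m, a methyltransferase of mitochondrial ribosomal RNA, fell by 0.33 in APPsα-DM hippocampus, and Polg, the mitochondrial DNA polymerase, by 0.31 in APLP2-KO hippocampus. In the other genotype Tfb1m gave -0.19 and Polg -0.15, neither past the threshold. Gabpa rose by 0.28 ± 0.08 in APLP2-KO hippocampus (adjusted p = 0.0464) and gave 0.18 ± 0.08 in APPsα-DM (adjusted p = 0.243). Ppargc1a, the coactivator best known for mitochondrial biogenesis, differed between the tissues by -0.04 ± 0.09 and 0.02 ± 0.09.

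In the citric acid cycle list, 2 genes rose and 0 fell in APPsα-DM hippocampus, and 2 rose and 2 fell in APLP2-KO hippocampus. Dlat and Dld, the E2 and E3 enzymes of the pyruvate dehydrogenase complex, rose in both, Dlat by 0.26 ± 0.07 (adjusted p = 0.0199) and 0.38 ± 0.07 (adjusted p = 0.0018), and Dld by 0.27 ± 0.07 (adjusted p = 0.0304) and 0.26 ± 0.07 (adjusted p = 0.0355). Suclg2, a subunit of succinate-CoA ligase, and Pcx, pyruvate carboxylase, fell in APLP2-KO hippocampus by 0.29 and 0.33. In APPsα-DM they gave -0.12 and -0.17, neither past the threshold. In glycolysis, 2 of 14 rose and 2 fell in APPsα-DM hippocampus, and 1 rose and 2 fell in APLP2-KO hippocampus: hexokinase 2 (Hk2) rose by 0.63 ± 0.13 and 0.59 ± 0.13, and the lactate dehydrogenase subunit Ldhb fell by 0.43 ± 0.06 and 0.54 ± 0.06. The phosphofructokinase Pfkp fell by 0.29 ± 0.06 and 0.34 ± 0.06, and Pfkl rose by 0.38 ± 0.09 in APPsα-DM. In APLP2-KO Pfkl gave 0.26 ± 0.09 and did not pass (limma's adjusted p = 0.0765). None of the 20 carrier and import genes passed in either genotype; the adenine nucleotide carriers Slc25a4 and Slc25a5, which exchange ADP for ATP, differed by 0.02 ± 0.06 and 0.01 ± 0.06 in APPsα-DM and by 0.03 ± 0.06 and 0.02 ± 0.06 in APLP2-KO. Over the 5 lists the tissue calls numbered 10 of 113 genes (8.85%) in APPsα-DM and 15 of 113 (13.3%) in APLP2-KO, near the 10.6% and 12.6% of all probe sets, and by setting they ranged from 5 to 15 and from 7 to 26.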

How the data were processed

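The deposited values are log2 signals made, per the submitters' processing notes, with RMA in the affy package (versions not given in the sources used here). This method subtracts background, equalises the arrays' distributions and condenses the probes of a set, and differences of dim probe sets come out compressed. The values ran from 1.80 to 14.36 with none missing, and array medians from 5.86 to 5.91. After 64 control probe sets were left out, 45037 were tested without a filter. Group means over all 12 arrays were fitted with limma 3.58.1 (R 4.3.3; lmFit and eBayes, 8 residual and 4.25 prior degrees of freedom), two-sided, with Benjamini-Hochberg adjustment over all probe sets; errors of differences are moderated standard errors. The number of arrays limits precision. The fit was tested on simulated data.

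The members, lists and tests were chosen with earlier results of these data known. Named were the members with the smallest p in the genotype comparisons, the isoform genes, members on chromosome 16, and list genes past the threshold; others stand inside counts or as values of their complex. Cox7b has no probe set with a single symbol and is not analysed here. The numbers in the labels were checked for pairing. Same-numbered tissues of APLP2-KO deviated together at r = 0.109, 0.131 and 0.155, while in APPsα-DM r was 0.079, 0.019 and 0.037. Differently numbered tissues of APLP2-KO gave r of -0.14 to 0.023. Arrays of different genotypes, which cannot share a mouse, ranged from -0.255 to 0.249 in cortex. Correlations of this size therefore cannot settle whether the numbers pair the tissues. The series gives 3 mice per genotype but does not tie arrays to mice. Alternatives were other normalisations, filters, probe set rules, weights, a replicate block, a choroid plexus covariate and leaving out arrays.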

Additional observations from a re-analysis of the deposited data

How the results depend on the processing

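Between the genotypes, 0 members were called under every alternative run in both tissues and for the difference between them. Cox6a2 in APLP2-KO was called under all 16 alternatives, with differences of -0.77 to -0.59 and adjusted p values of 0.000951 to 0.0394, also without either cortex array high in Ttr. In APPsα-DM the members called were Ndufb1 (1 higher) after leaving out probe sets under a group mean of 6, Cox6b2 and Cox8b (2 higher) with array weights, Atp5g1 and Cox6a2 (1 higher, 1 lower) with the mean of all probe sets, and Cox6a2 (1 lower) with the replicate block; leaving out single arrays gave 0 to 2 higher and 0 to 1 lower. The replicate block changed no other member's call and moved the calls over all probe sets from 4789 to 4477 in APPsα-DM and from 5672 to 5446 in APLP2-KO. In each genotype comparison, where the block joined same-numbered arrays of different mice, they moved from 4 to 5. In APLP2-KO, 1 member was called higher after the filter at 6 (Ndufb1) and 1 with an intensity trend (Cycs). Cox7a1 was called lower in APLP2-KO without APPsα-DM hippocampus array 1, which is not an array of that comparison. Among differences that were small against their errors signs changed: Ndufs4 in hippocampus was -0.02 with the mean of its probe sets, the Cox8b tissue difference in APLP2-KO was -0.25 with the choroid plexus covariate, and the members above 0 between the genotypes fell to 69 in hippocampus with that covariate and to 52 in cortex without APLP2-KO cortex array 2. Calls in the pathway lists between the genotypes fell to 0 in both tissues with the 6 arrays of a tissue alone, to 0 in cortex without the 2 arrays high in Ttr, and ranged from 0 to 1 with single arrays left out; the gene was Timmdc1, whose difference stayed between 0.78 and 0.95 in cortex and between 0.81 and 0.97 in hippocampus. List calls between the tissues were 6 with 6 arrays and 5 with the choroid plexus covariate in APPsα-DM (6 to 8 with single arrays left out), and 9 with 6 arrays, 24 with the filter and 26 with array weights in APLP2-KO (7 to 13 with single arrays left out). Atpaf1, Dld, Dlat, Pfkp and Hk2 lost their call under some of these; the cause was not tested. Intervals were widest for dim members, up to 3.35-fold between the genotypes in hippocampus for Cox8b.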
